A study of Rattus norvegicus with 6 samples.

Results

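A set of 9 miRNAs known for high levels in nerve tissue was followed in rat left ventricle: miR-9, miR-124, miR-128a, miR-137, miR-138, miR-129-3p, miR-129-5p, miR-153 and miR-219. They were taken by name, with prefix and assay number removed and passenger-strand assays left out, and all 9 were found among 584 miRNA assays. RNA came from the left ventricle of 3 OLETF rats, labelled diabetes, and 3 LETO rats, labelled healthy control. OLETF is an inbred strain that becomes obese and develops type 2 diabetes, and carries a deletion that removes the cholecystokinin A receptor. LETO is the related strain without diabetes. Strain and disease go together in this design and cannot be told apart, and the labels state no age for the rats. Each miRNA was read by RT-qPCR as a threshold cycle (Ct), the PCR cycle at which its signal crosses a threshold, so a lower Ct means more template. A well that never crossed it was deposited as undetermined.

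MicroRNAs are short RNAs that guide Argonaute proteins to messenger RNAs, which they pair with mainly through the seed, bases 2 to 8. In the brain, miR-124 is the typical neuronal miRNA and represses transcripts of non-neuronal cells. miR-9 acts in neural progenitors and in neuron differentiation, miR-137 and miR-138 are studied in dendrites and synapses, miR-128 in neuronal excitability, and miR-219 in the formation of oligodendrocytes. The ventricle holds nerve fibres and their glia beside muscle, vessel, connective tissue and blood cells. In such bulk RNA, fewer cells of a type and less RNA per cell cannot be told apart.

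Rat mature sequences for 8 of the 9 were in the RefSeq table for build GRCr8 and are shown because the seed decides which transcripts a miRNA can pair with. The older array names carry no arm for most of these miRNAs, so each was matched to the arm that name stood for. Seeds are in capitals.
miR-138 (rno-miR-138-5p): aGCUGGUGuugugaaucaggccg
miR-9 (rno-miR-9a-5p): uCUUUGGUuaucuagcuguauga
miR-128a (rno-miR-128-3p): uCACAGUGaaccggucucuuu
miR-137 (rno-miR-137-3p): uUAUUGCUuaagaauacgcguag
miR-129-3p (rno-miR-129-2-3p): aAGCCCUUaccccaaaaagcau
miR-129-5p (rno-miR-129-5p): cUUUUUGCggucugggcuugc
miR-153 (rno-miR-153-3p): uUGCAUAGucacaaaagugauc
miR-219 (rno-miR-219a-5p): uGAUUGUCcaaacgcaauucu
miR-9* (rno-miR-9a-3p, opposite strand of miR-9): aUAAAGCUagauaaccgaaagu

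The 8 seeds were all different, so these miRNAs share a tissue and not a seed family. Among the 693 rat mature names of that table, only miR-129-3p shared its seed with another miRNA, rno-miR-129-1-3p from the second miR-129 hairpin. The 7 letters of the miR-128 seed also stood at bases 3 to 9 of miR-27a and miR-27b, vessel and muscle miRNAs, shifted by 1 base. They are in capitals here.
miR-27a (rno-miR-27a-3p): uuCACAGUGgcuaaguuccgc

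Several of the 9 come from more than 1 gene, which the assays cannot tell apart because the mature strand is the same. miR-9 has hairpins at chr2:175974971-175975059 (Mir9-1), chr2:15933292-15933378 (Mir9-2) and chr1:142849400-142849489 (Mir9-3), all on the plus strand of GRCr8. In the RefSeq gene table, Mir9-1 and Mir9-3 lie within long noncoding genes, LOC100911992 and Mir9-3hg, and Mir9-2 within Mir9-2hg. miR-128a has hairpins at chr13:42251884-42251965, plus strand, within the span of the protein-coding gene R3hdm1, and at chr8:120963795-120963878, minus strand, within that of Arpp21. miR-138 comes from chr8:131178434-131178532, plus strand, within 2 noncoding genes, and chr19:10680133-10680214, minus strand, within the span of Slc12a3. Mir153 lies within the span of Ptprn2, which encodes a protein of secretory vesicles. These are positions in the annotation, and no expression of the spanning genes was measured.

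**Figure D1:**
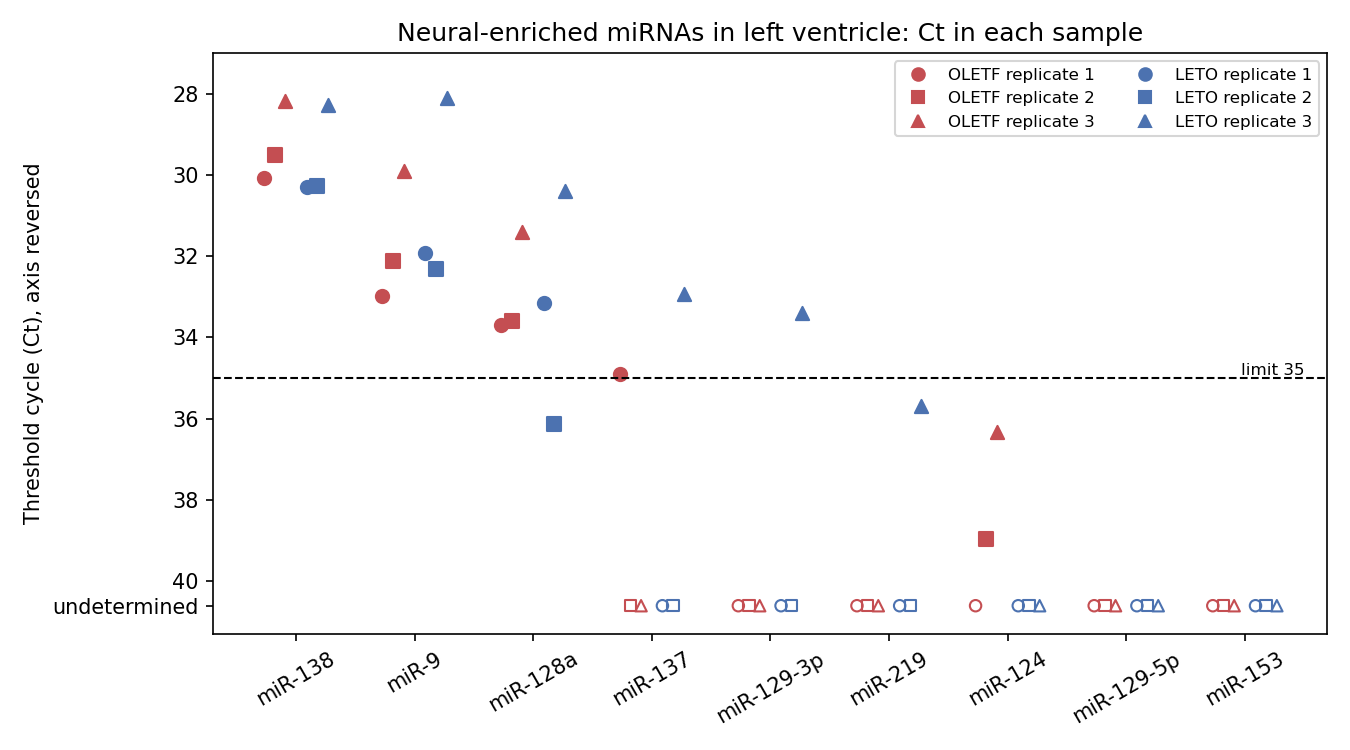
Threshold cycle of each of the 9 miRNAs (horizontal axis) in each sample, on a reversed axis so that more template lies higher. Filled points are single wells, open points are undetermined wells and the dashed line is the limit of 35. miR-138, miR-9 and miR-128a were read in all 6 samples, and miR-129-5p and miR-153 in none.

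Of the 9 neural-enriched miRNAs, 3 amplified in every ventricle, 4 in 1 or 2 samples and 2 in none. On the card that held all 9 (card A, with 375 miRNA assays), 147 assays amplified in all 6 samples (39.2%), 120 in none (32%), 33 in a single sample and 26 in exactly 2. OLETF ventricles gave 12 determined wells of 27 and LETO ventricles 12 of 27, or 44.4% in both, against 51.1% and 52.2% of all card A miRNA wells. Each OLETF sample had 4 determined wells, while LETO replicates 1, 2 and 3 had 3, 3 and 6 (mean 4 ± 0.0 in OLETF and 4 ± 1.73 in LETO, SD, n = 3 each, two-sided exact permutation p = 1). With a Ct of 35 as the limit for a measured value, the mean was 3.33 ± 0.577 in OLETF and 3.33 ± 1.53 in LETO (exact permutation p = 1). A comparison of 3 with 3 samples allows no exact p below 0.1.

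LETO replicate 3 stood apart on the whole card. It amplified 61.1% of the card A assays, against 49.3% to 54.7% in OLETF samples and 47.2% and 48.3% in the other LETO samples. Its median Ct over assays measured in all samples was 26.50, with 27.96 in OLETF replicate 3 and 28.93 to 30.02 in the other 4 samples, while its U6 Ct of 17.89 lay within the 17.46 to 19.20 of the others. It alone gave a determined well for 15 card A assays, 2 of them among the 9 miRNAs. Without it, the mean number of determined wells was 4 in OLETF and 3 in LETO (exact permutation p = 0.1, the smallest that 3 against 2 samples can give). The group differences of miR-138 and miR-9 are given below with and without it, while without it miR-128a had too few LETO values for the fit.

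miR-138, studied in the size control of dendritic spines and, in zebrafish, in the patterning of the developing heart, was the most readily amplified of the 9. Its Ct was 30.07, 29.51 and 28.18 in OLETF replicates 1, 2 and 3, and 30.29, 30.27 and 28.29 in LETO replicates 1, 2 and 3. Replicate 3 gave the lowest Ct in both groups, and the 2 groups covered nearly the same range. In OLETF samples 30.7% to 41.1% of the determined card A miRNAs had a lower Ct, and in LETO samples 37.9% to 41.5%, so miR-138 sat in the middle of the cardiac miRNAs that amplify, not at the edge of detection. For scale, miR-133a, a miRNA of heart muscle, averaged a Ct of 17.47 ± 0.28 in OLETF and 17.30 ± 0.64 in LETO. Assays differ in efficiency, so such gaps order the assays and do not measure molecules.

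Relative to U6, the small nuclear RNA that the labels name as endogenous control, the level of miR-138 was -12.43, -11.57 and -9.96 log2 units in OLETF replicates 1, 2 and 3, and -11.08, -12.81 and -10.40 in LETO. The highest OLETF sample lay above every LETO sample and the lowest OLETF sample between LETO replicates 1 and 2, so the groups overlapped. The difference of OLETF minus LETO was 0.11 (SE 1.38, 95% interval -2.60 to 2.81, limma adjusted p = 0.997), and 0.63 without LETO replicate 3. Relative to the median of card A, which removes the shift common to all assays of a sample, the level was -0.62 ± 0.47 in OLETF and -0.94 ± 0.78 in LETO (SD, n = 3 each). That difference was 0.31 (SE 0.49, interval -0.80 to 1.43, limma adjusted p = 0.803, exact permutation p = 0.6). It took the other sign, -0.11, without LETO replicate 3.

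miR-9 amplified in all 6 ventricles at a later cycle than miR-138 except in LETO replicate 3. Its Ct was 32.98, 32.12 and 29.90 in OLETF replicates 1, 2 and 3, and 31.91, 32.31 and 28.10 in LETO. Both replicates 3 lay at least 2 cycles below the other samples of their group. The level relative to U6 was -15.34, -14.18 and -11.68 in OLETF and -12.70, -14.85 and -10.21 in LETO. The groups overlapped, with the lowest value in OLETF replicate 1 and the highest in LETO replicate 3. The difference was -1.15 (SE 1.38, interval -3.85 to 1.56, limma adjusted p = 0.997, exact permutation p = 0.6), and it was 0.04 without LETO replicate 3.

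Relative to the card median, miR-9 was -4.06, -3.11 and -1.94 in OLETF and -1.88, -2.79 and -1.60 in LETO. OLETF lay lower in 8 of 9 pairs of samples, and only the pair of OLETF replicate 3 and LETO replicate 2 ran the other way. The difference of -0.94 (SE 0.59, interval -2.29 to 0.40) did not pass the test (limma adjusted p = 0.632, exact permutation p = 0.2). Without LETO replicate 3 it was -0.70. Within replicates 1 and 2 it was -1.24, and between the single samples of replicate 3 it was -0.34. Of the 193 assays tested, 18 had a lower difference on this scale.

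miR-128a, which in mouse heart is also studied for a brake on division of cardiac muscle cells, was the latest of the 3 miRNAs read in every sample. Its Ct was 33.69, 33.60 and 31.40 in OLETF replicates 1, 2 and 3, and 33.15, 36.12 and 30.39 in LETO. LETO replicate 2 therefore lay past the limit of 35 and the fit counted it as missing, so its value rests on 3 OLETF and 2 LETO samples. That fit gave a difference of -1.74 relative to U6 (SE 1.54, interval -4.76 to 1.29, limma adjusted p = 0.997). With the limit at 38, which kept LETO replicate 2, the difference was 0.07 (SE 1.45, interval -2.77 to 2.91, limma adjusted p = 0.992). Levels relative to U6 were -16.05, -15.66 and -13.18 in OLETF and -13.95, -18.66 and -12.50 in LETO. The LETO samples thus enclosed all OLETF samples, and a single well decided the sign. Relative to the card median the difference was -0.75 (SE 0.55, interval -2.03 to 0.53, limma adjusted p = 0.634) with the limit at 35. With the limit at 38 it was 0.43 on that scale (SE 0.89, interval -1.64 to 2.51, limma adjusted p = 0.908).

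**Figure D2:**
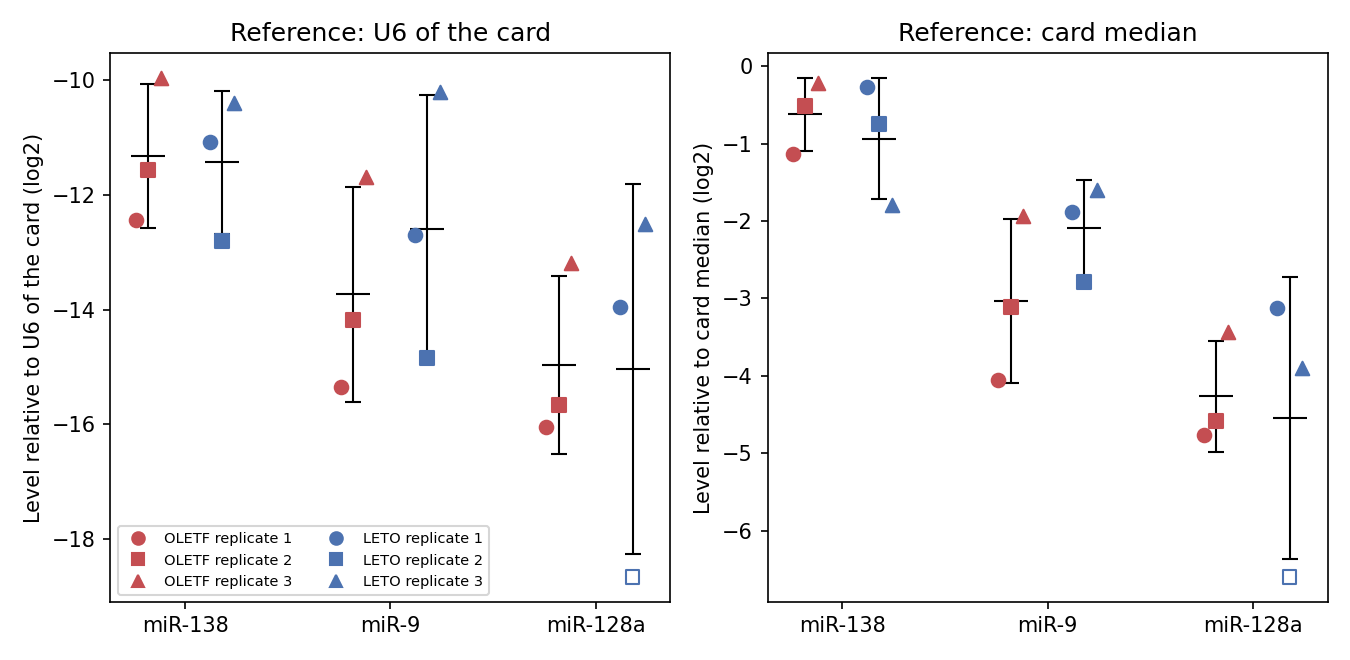
Levels of the 3 miRNAs read in all samples, on the log2 scale, relative to U6 (left) and to the median of card A (right). Points are samples, bars are the mean and SD of 3 samples, and the open square is LETO replicate 2 of miR-128a at a Ct of 36.12. The OLETF and LETO points overlap for every miRNA on both scales.

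**Figure D3:**
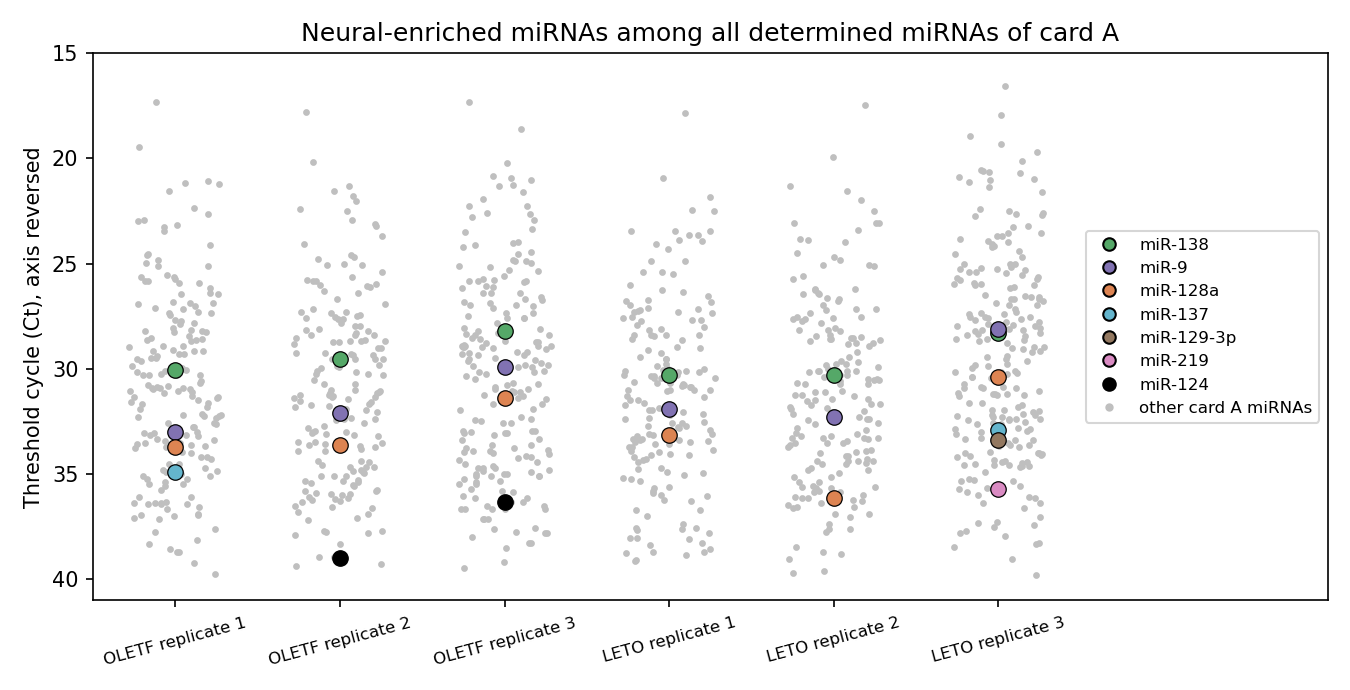
Ct of every determined card A miRNA in each sample (grey points, reversed axis), with the neural-enriched miRNAs in colour. miR-138 lies in the middle of each column, and miR-9 and miR-128a lie lower, except that miR-9 lies just above miR-138 in LETO replicate 3. miR-124 lies near the end of the OLETF replicate 2 and replicate 3 columns.

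Across the 3 tested miRNAs, 2 lay lower and 1 higher in OLETF with either reference at the limit of 35. With LETO replicate 2 of miR-128a kept (limit 38), miR-128a took the other sign, and 1 lay lower and 2 higher with either reference. As background, 80.8% of 193 tested assays lay lower in OLETF relative to U6 and 67.4% relative to the card median, with median changes of -0.60 and -0.31. None of the 3 passed an adjusted p of 0.05, and the share over all assays was 0% with either reference (limma, 0 of 193 each). At an unadjusted p under 0.05 there were 2 assays relative to U6 and 12 relative to the card median (1 and 11 with the ordinary per-assay test), and none of them was among the 9. Neither miR-138 nor miR-9, the 2 measured in all 6 samples, separated the groups, against 0% of 162 such assays relative to U6 and 13.6% relative to the card median. With U6 the fit gave each of the 162 assays with a Ct below 35 in all 6 samples the same SE, 1.38, so that SE reflects all tested assays together.

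In Ct the order miR-138, miR-9, miR-128a held in 5 of 6 samples. In LETO replicate 3 miR-9 came first, with 28.10 against 28.29 for miR-138, a gap smaller than the SD of a single well (0.486 cycles, from 189 pairs of wells on card B). Each of the 9 had 1 well per sample, so no well was repeated. The ranges of neighbours in this order overlapped over the samples: miR-138 averaged 29.26 ± 0.97 in OLETF and 29.62 ± 1.15 in LETO, miR-9 31.67 ± 1.59 and 30.77 ± 2.32, and miR-128a 32.90 ± 1.30 and 33.22 ± 2.86 (OLETF, then LETO, SD, n = 3 each).

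The other 6 miRNAs amplified late and in few samples, so they were described well by well and not tested. miR-137, which acts in neuron maturation, had a Ct of 34.90 in OLETF replicate 1 and 32.92 in LETO replicate 3 and was undetermined in the other 4 samples. The OLETF value lay 0.1 cycles inside the limit. Relative to the card median the levels of the 2 wells were close, -5.97 in OLETF replicate 1 and -6.43 in LETO replicate 3. Relative to U6 they were further apart and in the other order, -17.26 in OLETF replicate 1 and -15.03 in LETO replicate 3. miR-129-3p amplified only in LETO replicate 3, at 33.39, and no well of miR-129-5p amplified in any sample. Both arms come from the miR-129-2 hairpin, and miR-129-5p also comes from Mir129-1 on chromosome 4. miR-219, a miRNA of oligodendrocytes, also amplified only in LETO replicate 3, at 35.69, past the limit. miR-153, studied for its part in synaptic vesicle release, was undetermined in 6 of 6 samples.

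miR-124 ran against the pattern of the sample with most signal. It was undetermined in OLETF replicate 1 and read at 38.96 and 36.33 in OLETF replicates 2 and 3, while all 3 LETO wells were undetermined, including that of replicate 3. Of 375 card A assays, 2 amplified in at least 2 OLETF and 0 LETO samples, miR-124 and miR-455, whereas 10 amplified in at least 2 LETO and 0 OLETF samples. miR-455 is no neural miRNA of the list and is named because the count is small, after its values were seen. Both miR-124 wells lay past the limit of 35, where 98.4% and 89.3% of the determined card A miRNAs of the sample came earlier, and at this depth a presence in OLETF alone was not measurable. An undetermined well sets only an upper bound on the template.

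These late wells decide the ratios that the authors deposited for the rarest of these miRNAs. In the authors' deposited table, miR-124 stood at an OLETF over LETO ratio of 2.50, with 1 OLETF and 3 LETO wells undetermined. The authors' deposited table gave 0.182 for miR-129-3p and 0.311 for miR-219, each from a single LETO well and no OLETF well, and 0.533 for miR-137, from 1 well of each group. The authors' deposited table gave 0.841 for both miR-129-5p and miR-153, which had no determined well in any sample. Counting an undetermined well as 40 cycles returned all 9 ratios, so a value below 1 for an undetermined miRNA is the group difference in U6 alone. For the miRNAs read in all samples, the authors' deposited table gave 1.08 for miR-138, 0.452 for miR-9 and 1.05 for miR-128a.

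Opposite strands of the same hairpins give a second reading of miR-9 and miR-138 on the other card. miR-9*, the 3' strand of the miR-9 hairpins, amplified in all 6 samples at a Ct of 33.37, 34.56 and 31.89 in OLETF replicates 1, 2 and 3, and 30.98, 33.22 and 29.84 in LETO. Relative to U6 it lay below miR-9 in every sample, by 1.07, 3.52 and 2.35 log2 units in OLETF and 0.55, 2.29 and 1.67 in LETO. That gap was 2.31 ± 1.23 in OLETF and 1.50 ± 0.88 in LETO (SD, n = 3 each, exact permutation p = 0.4), so the strands did not diverge beyond the spread of the samples. The strands were read on different cards, and their order depended on the reference. In Ct, miR-9* came earlier than miR-9 in LETO replicate 1 (30.98 against 31.91). Relative to each card's median, miR-9* lay above miR-9 in OLETF replicate 1 (-2.66 against -4.06) and LETO replicate 1 (-1.85 against -1.88). It lay below miR-9 in the other samples. Like miR-9, miR-9* lay lower in OLETF in 8 of 9 pairs relative to the card median. Its difference was -1.19 (SE 0.55, limma adjusted p = 0.632), and -1.95 relative to U6 (SE 1.38, limma adjusted p = 0.997). The 2 strands share samples and hairpins, so this is not independent evidence.

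**Figure D4:**
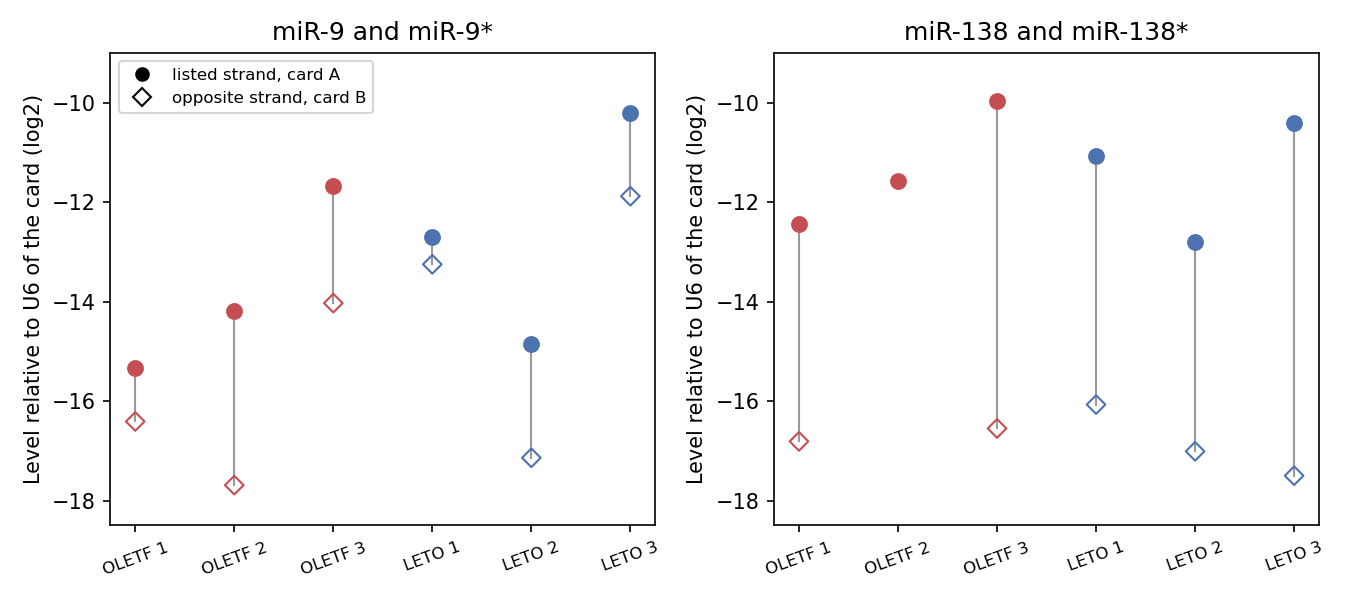
Level relative to U6 of the card (log2) of miR-9 and miR-138 (filled circles, card A) and of their opposite strands (open diamonds, card B), with OLETF samples in red and LETO samples in blue. miR-9 lies 0.55 to 3.52 above miR-9*, and miR-138 lies 4.20 to 7.10 above miR-138*, which had no determined well in OLETF replicate 2. The 7.10 is LETO replicate 3, whose miR-138* Ct of 35.46 is past the limit.

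The miR-138 hairpins differ outside the shared 5' strand. They are shown with both arms in capitals, since among the mature strands only the 3' arm could tell which gene is active.
Mir138-1: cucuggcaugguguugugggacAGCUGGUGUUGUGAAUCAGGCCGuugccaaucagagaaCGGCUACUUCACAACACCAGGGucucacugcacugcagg
Mir138-2: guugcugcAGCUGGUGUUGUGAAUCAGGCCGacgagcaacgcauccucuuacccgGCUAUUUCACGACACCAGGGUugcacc

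The files do not say which of these 3' arms the miR-138* assay was designed for. miR-138* was determined in 1, 0 and 2 of 2 wells in OLETF replicates 1, 2 and 3 and in 2 of 2 wells in each LETO sample, with wells of the same sample up to 6 cycles apart (32.43 and 38.49 in LETO replicate 3). Its level lay 4.38 and 6.59 log2 units under miR-138 in OLETF replicates 1 and 3, and 4.98, 4.20 and 7.10 under it in LETO. The gaps in both replicates 3 include a well past the limit of 35 (36.19 in OLETF and 38.49 in LETO), and the mean miR-138* Ct of LETO replicate 3, 35.46, lies past it too, so these gaps are not firm. miR-124* had no determined well. Of the opposite strands of miR-219, miR-219-2-3p had none and miR-219-1-3p was read in 2 OLETF and 1 LETO samples, past the limit each time.

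Other miRNAs linked to the nervous system were likewise mixed in detection. From a list of 30 names, which holds these opposite strands, 23 were on the cards as 24 assays. A Ct below 35 in each of the 6 samples was seen for 5 of them, and 11 never reached that limit, 4 of these without any determined well. Among the 6 tested, 4 lay lower and 2 higher in OLETF with either reference and 0 passed. The earliest of these assays were miR-149, with a mean Ct of 24.6, and miR-218, with 27.8. miR-149 differed by -1.43 relative to U6 (SE 1.38, limma adjusted p = 0.997) and -0.67 relative to the card median (SE 0.44, adjusted p = 0.632). miR-218, which motor neurons express strongly and which lies within Slit genes, differed by 0.55 (SE 1.38, limma adjusted p = 0.997) and 0.75 (SE 0.39, adjusted p = 0.632). miR-9* had the smallest p of the list relative to U6, and miR-149 the next.

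Markers of heart muscle were measured in every sample (7 of 7 assays in each). Their summed signal was 1.15 to 1.99 times that of U6 in OLETF and 1.03 to 2.79 times in LETO. Most of this linear sum was miR-133a, with a mean level relative to U6 of 0.46 log2 units in OLETF and 0.89 in LETO. The next highest of these assays, rno-miR-1, lay at -4.85 and -4.10. These sums set samples side by side for the same list, count wells past the limit as 0 and are not amounts of RNA. The glial markers miR-219 and miR-338-3p summed to at most 1.91e-05 in OLETF and 4.23e-05 in LETO, with miR-219 counted as 0 in all samples. miR-338-3p was determined in all 6 samples, at a mean Ct of 34.7, but lay below the limit in only 1 OLETF and 2 LETO samples. These low sums are therefore not an absence of the glial markers. Whether the neural-enriched signal comes from nerve fibres or from heart cells was not tested.

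By the smallest root mean square distance between levels centred on their mean over the 6 samples, relative to the card median, the assays most like miR-9 were miR-145, miR-339-5p and miR-328. Their distances were 0.35, 0.36 and 0.37 log2 units, against a median of 0.86 over 161 assays. Like miR-9, each was lowest in OLETF replicates 1 and 2 and above its own mean in OLETF replicate 3, LETO replicate 1 and LETO replicate 3. The assays most like miR-138 were miR-532-3p, miR-146a and miR-17, at 0.24, 0.27 and 0.27, against a median of 0.76. All 4 of these had their lowest centred level in LETO replicate 3, with -1.01 for miR-138, so their likeness rests in part on that sample and was not computed without it. Samples and normalization are shared between these assays, so likeness is a description only.

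**Figure D5:**
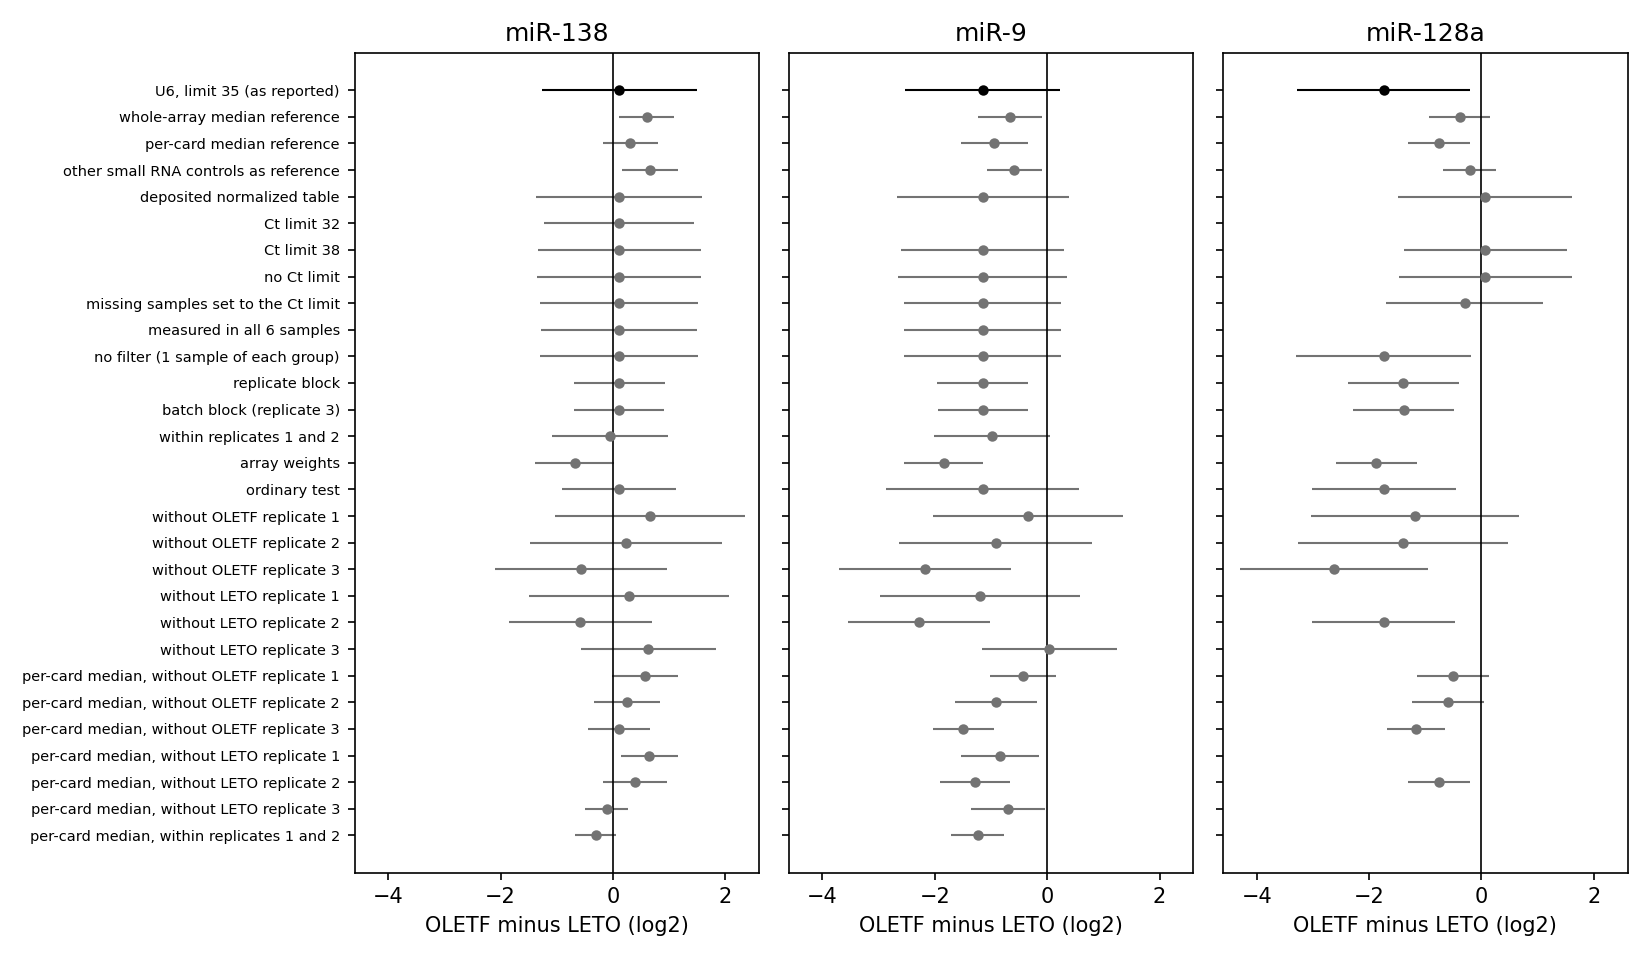
Difference of OLETF minus LETO (log2, horizontal axis) for miR-138, miR-9 and miR-128a under each processing setting (rows), with bars of 1 SE. The top row is the value relative to U6 at a Ct limit of 35. A row is empty where too few samples were left. miR-9 stays at or below 0 except without LETO replicate 3, at 0.04.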

How the data were processed

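Left ventricular RNA of 3 OLETF and 3 LETO rats was copied to cDNA from a stem-loop primer pool and read on rodent TaqMan cards, per the labels' protocols. The labels' dye field names SYBR Green. Baseline and threshold settings are not given in the sources used here. Nothing states that the replicates came from separate litters or days, so p-values measure only the spread between these samples.

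The deposited Ct table held 768 wells per sample, taken as 2 cards of 384 by row order. The normalized table that the authors deposited holds delta Ct on a log2 scale of reversed sign, per the file headers and labels. Subtracting the average Ct of each card's 4 U6 wells from every Ct, with undetermined assays at 40, returned 3504 values to within 3.75e-06. The deposited ratio (fold) table is the authors' OLETF over LETO.

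From the Ct table, repeat wells were averaged where determined, and a Ct of 35 or more was treated as missing. The level was U6 Ct minus Ct, or card median minus Ct. Assays measured in at least 2 samples of each group were fitted together in limma 3.58.1 (R 4.3.3, lmFit and eBayes, two-sided, Benjamini-Hochberg over all 193 assays tested, threshold 0.05), checked on simulated data. Single values had exact permutation tests. The 9 miRNAs and all lists were chosen with earlier results of these data known. The rule for names took all 9, from the longer neural list the 2 of lowest Ct and 2 of smallest p, and the 3 assays most like each of the 9 measured throughout; opposite strands were added. Precision is limited by 1 well per sample and by late cycles. Alternatives covered the reference, the Ct limit, the filter, blocks, weights and samples left out.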

Additional observations from a re-analysis of the deposited data

How the results depend on the processing

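Only 3 alternatives brought any assay under an adjusted p of 0.05 (limma). Blocking by replicate gave 1 such assay, blocking by replicate 3 alone gave 1, and array weights gave 30. The 9 neural-enriched miRNAs were not among these, and miR-9 came nearest, at 0.0513 with array weights. Those weights were 3.25, 3.7 and 0.354 for OLETF replicates 1, 2 and 3, and 3.02, 0.329 and 0.237 for LETO. The weighted fit thus rested mainly on OLETF replicates 1 and 2 and LETO replicate 1. Its 30 assays and its miR-9 value do not speak for all 6 samples equally. Why the samples were weighted so unequally was not tested. OLETF and LETO samples of the same replicate number in their titles did not deviate together throughout (correlations -0.088, 0.23 and 0.62 for numbers 1, 2 and 3). Pairing by title number was therefore not assumed. The file headers number the LETO samples differently from the titles, and pairing by header number was not tested. With the replicate block the differences were -1.15 for miR-9, -1.39 for miR-128a and 0.11 for miR-138. miR-128a was 0.07 with the deposited normalized table, with a Ct limit of 38 and with no limit, as these keep LETO replicate 2. miR-138 was -0.05 within replicates 1 and 2, -0.68 with array weights and, chosen after seeing the data, -0.31 relative to the card median within replicates 1 and 2; the cause was not tested. With 1 sample left out, relative to U6, miR-9 ran from -2.28 to 0.04 (above 0 without LETO replicate 3), miR-128a from -2.63 to -1.19 over 4 of the 6 removals (without LETO replicate 1 or 3 too few values remained) and miR-138 from -0.58 to 0.66 (below 0 without OLETF replicate 3, -0.57, or LETO replicate 2, -0.58). Relative to the card median, chosen after seeing the data, miR-9 ran from -1.49 to -0.43, miR-128a from -1.16 to -0.51 over the same 4 removals and miR-138 from -0.11 to 0.65. Referred to snoRNA135 and U87 in place of U6, miR-9 was -0.59, miR-128a -0.21 and miR-138 0.66, and with the median of both cards they were -0.66, -0.39 and 0.60. The group difference in determined wells ran from -0.5 to 1, and that in measured miRNAs from -0.667 to 0.833. A Ct limit of 32 left only miR-138 testable of the 9.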
